A study of Mus musculus with 18 samples.

Results

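The miR-30 and miR-26 families were followed in splenic B cells through 7 mature miRNAs, mmu-miR-30a-5p, mmu-miR-30b-5p, mmu-miR-30c-5p, mmu-miR-30d-5p, mmu-miR-30e-5p, mmu-miR-26a-5p and mmu-miR-26b-5p. The mouse prefix is left out from here on, and 5p names the arm of the hairpin. They were chosen by name, among 1265 miRNA probes on each array, because both families have been reported as repressed by the transcription factor Myc in B cells. Earlier results of these data were known at that choice. The mice were wild type (WT) or carried miR-17~92, a miRNA cluster driven by the Eμ enhancer and the immunoglobulin heavy-chain (IgH) promoter, which direct expression to B cells. The transgenic mice came from founder line 9 (Tg9) or founder line 79 (Tg79), each line the offspring of 1 founder, and the labels give no age, strain or sex. B cells were isolated from the spleen on magnetic beads, and 3 arrays were hybridised in each of the 3 groups.

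A mature miRNA guides an Argonaute protein to messenger RNAs that pair with its seed, bases 2 to 8 from the 5′ end, and lowers their output. Members of a family share that seed and are thought to reach largely overlapping targets. Myc binds at the genes of several miRNAs in lymphoma cells and lowers their transcripts, while it raises the miR-17~92 cluster. Both families are widely expressed, and forced expression of miR-26a has been reported to slow lymphoma cells and to lower Ezh2, a histone methyltransferase.

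Mature sequences were found in RefSeq (GRCm38.p6) for 5 of the 7 members, with the seed in capitals. They are shown because each family's shared seed, and how little its members differ outside it, bear on how far their signals can be told apart.
miR-30a-5p: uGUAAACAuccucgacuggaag
miR-30c-5p: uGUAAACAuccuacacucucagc
miR-30e-5p: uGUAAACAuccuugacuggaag
miR-26a-5p: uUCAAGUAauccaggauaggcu
miR-26b-5p: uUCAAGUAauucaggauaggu

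Counting from 1 at the 5′ end, miR-30a-5p and miR-30e-5p differed by C13U alone, and miR-26a-5p and miR-26b-5p by C11U and C21U over the 21 bases compared. miR-30c-5p stood further off, with 17 of 22 bases shared with miR-30a-5p. The sequences of the array's probes were not used here, so signal that passes between near-identical members was not separated. Of 1679 mouse miRNAs in the table, which lacks miR-30b-5p and miR-30d-5p, 4 carried the seed GUAAACA (0.238%) and 2 the seed UCAAGUA (0.119%). The only carrier among them outside the families was miR-384-5p, which lay above background on 0 of 9 arrays.

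The members come from several loci. The miR-30e hairpin lies at chr4:120772606-120772697 on the minus strand and that of miR-30c-1 at chr4:120769534-120769622, with 2983 bases between them, both within the span of Nfyc, a subunit gene of the transcription factor NF-Y. The hairpins of miR-30a (chr1:23272269-23272339) and miR-30c-2 (chr1:23291701-23291784) lie 19361 bases apart on the plus strand. miR-30c-5p is the same sequence from miR-30c-1 and miR-30c-2, so its signal cannot be split between those loci. The miR-26 hairpins lie within 3 related phosphatase genes, miR-26a-1 in Ctdspl (chr9:119031796-119031885), miR-26a-2 in Ctdsp2 (chr10:126995530-126995613) and miR-26b in Ctdsp1 (chr1:74394310-74394394). The table gives gene spans only, so intron or exon was not assigned. The transcripts of these host genes were not analysed here.

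The hairpin of miR-30e is shown with its mature arms in capitals, the 5p arm first and the 3p arm after the loop, since both arms were measured above background on all 9 arrays.
Mir30e: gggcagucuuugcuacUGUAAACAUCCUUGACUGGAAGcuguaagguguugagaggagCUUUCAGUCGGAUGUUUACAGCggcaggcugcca

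Levels are log2 intensities after quantile normalization, and each probe is compared only with itself across arrays. The transgene's own product was read through miR-17-5p, which stood at 10.26, 10.57 and 10.34 on WT1, WT2 and WT3 and at 13.12, 13.54 and 13.25 on Tg79-1, Tg79-2 and Tg79-3. Tg9-1 read 13.25. Those labelled Tg9-2 and Tg9-3 stood at 10.60 and 10.86, above the highest wild-type array but far under Tg9-1. Before normalization the array labelled Tg9-3 read 1514, under the lowest wild-type array at 1574. On these arrays miR-20a-5p, of the same cluster, read 10.39 and 10.52, against at most 10.26 in wild type. There miR-18a-5p, also of the cluster, read 7.75 and 7.87, against at most 7.90. Both arrays were thus near wild type under a transgenic label, and whether the label holds for them was not tested. The 6 guide arms of the cluster had a median difference of 2.62 in Tg79. Limma called 5 of them higher, where 3.59% of all tested miRNAs were. That count was 0 without WT1, without WT3 or without Tg79-2, with no filter, with slide or replicate number as a factor and with the background column, as was the count over all miRNAs. Between 35.1% and 40.8% of probes lay above background on the wild-type arrays, between 33.0% and 42.6% on the Tg9 arrays and between 24.4% and 32.3% on the Tg79 arrays. By the slide codes in the scanner files the arrays lie on 3 slides, which hold the Tg9 arrays with WT1, the Tg79 arrays with WT2, and WT3. All 7 members lay above background on all 9 arrays, so every member was tested.

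In Tg79 all 7 members had a lower mean than in wild type, by 0.56 to 1.60 on the log2 scale, and none passed the test. Limma's smallest adjusted p among them was 0.079, for miR-26b-5p. The deficit was large on Tg79-1 and Tg79-2 and small on Tg79-3. In Tg9 the means lay under those of wild type by at most 0.26, with arrays on both sides.

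**Figure D1:**
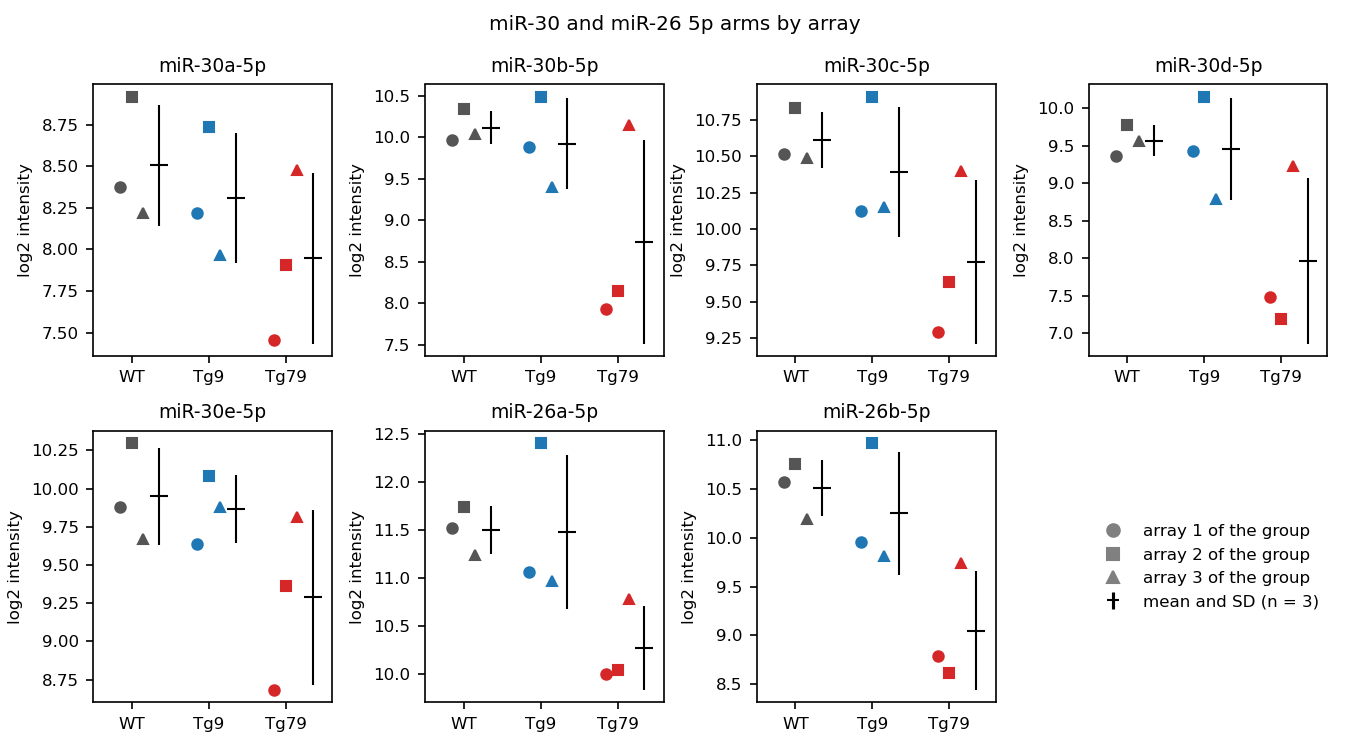
Log2 intensity of each of the 7 members on each of the 9 arrays, in wild type (WT), Tg9 and Tg79; symbols mark the array number, and the black bar gives the group mean and SD (n = 3). Tg79-1 and Tg79-2 lie below all wild-type arrays in all 7 panels, while Tg79-3 lies within the wild-type range for miR-30a-5p, miR-30b-5p and miR-30e-5p.

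miR-26b-5p, which RefSeq places in Ctdsp1, read 10.57, 10.76 and 10.20 on WT1 to WT3. The Tg9 arrays read 9.96, 10.97 and 9.82. On Tg79-1 to Tg79-3 it read 8.79, 8.62 and 9.74. All 3 Tg79 arrays lay below all wild-type and all Tg9 arrays, while Tg9 arrays lay on both sides of wild type. The Tg79 mean was 9.05 ± 0.61 (SD, n = 3) against 10.51 ± 0.29 in wild type, a log2 difference of -1.46 ± 0.39 (SE), or 2.75-fold lower (limma unadjusted p = 0.00632, adjusted p = 0.079).

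miR-26a-5p, the member reported to lower Ezh2, read 11.52, 11.74 and 11.24 in wild type. In Tg9 it read 11.06, 12.41 and 10.97, and the array labelled Tg9-2 was the highest of all 9. In Tg79 it read 10.00, 10.04 and 10.78, again without overlap with wild type or Tg9. The Tg79 difference from wild type was -1.23 ± 0.40 (adjusted p = 0.121), and the Tg9 difference was -0.023 ± 0.40.

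miR-30d-5p had the largest mean difference of the 7, -1.60 ± 0.56 in Tg79, or 3.03-fold lower (adjusted p = 0.133). Its wild-type arrays read 9.36, 9.77 and 9.57, and its Tg79 arrays 7.49, 7.18 and 9.23. The Tg9 arrays read 9.43, 10.15 and 8.79. Tg79-3 lay just under the lowest wild-type array, Tg79-1 and Tg79-2 lay far under it, and Tg9 overlapped wild type.

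miR-30b-5p showed the same split within Tg79. Its arrays read 7.93, 8.15 and 10.15 there, 9.96, 10.34 and 10.04 in wild type with 9.88, 10.48 and 9.40 for Tg9. Tg79-3 lay between wild-type arrays, so the groups overlapped. The SD was 1.22 in Tg79 against 0.20 in wild type, and the difference of means was -1.37 ± 0.57 (adjusted p = 0.192).

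miR-30c-5p, the product of the Nfyc locus and of the locus beside miR-30a, read 10.52, 10.83 and 10.48 on the wild-type arrays. Its Tg9 arrays read 10.12, 10.91 and 10.15, and its Tg79 arrays 9.29, 9.64 and 10.39. Tg79 did not overlap wild type, though Tg79-3 lay close under WT3. The Tg79 difference was -0.84 ± 0.32 (adjusted p = 0.164).

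miR-30e-5p, from the same Nfyc locus, read 9.88, 10.30 and 9.67 on the wild-type arrays, 9.64, 10.08 and 9.88 on those of Tg9 and 8.68, 9.36 and 9.82 on those of Tg79. miR-30a-5p, its near-identical relative, read 8.38, 8.92 and 8.22 for wild type, 8.22, 8.74 and 7.97 for Tg9 and 7.46, 7.91 and 8.48 for Tg79. Both overlapped wild type through Tg79-3, with Tg79 differences of -0.66 ± 0.30 and -0.56 ± 0.32 (adjusted p = 0.22 and 0.318). The 95% interval for miR-30a-5p ran from -1.30 to 0.18, and that for miR-30e-5p from -1.35 to 0.028.

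Set against the whole table, limma called 5 of 501 tested miRNAs lower in Tg79 (0.998%) and 0 of the 7 members. At an unadjusted p under 0.05, 5 of the 7 members were lower, all but miR-30a-5p and miR-30e-5p, where 12% of all tested miRNAs were. For 4 members, miR-26a-5p, miR-26b-5p, miR-30c-5p and miR-30d-5p, all Tg79 arrays lay below all wild-type arrays, where 16.4% of all tested miRNAs did so. Without Tg79-3 that held for 7 of 7 members, where 27.1% of all did so. Only through Tg79-3 did members overlap wild type, so leaving it out fixes that count. Without Tg79-1 or without Tg79-2 the count stayed at 4. The median difference of the members was -1.23, beside -0.037 over all tested miRNAs. Since the members were chosen with earlier results of these data known, these shares and medians are description only. RNA lost from each cell and a smaller share of cells with these miRNAs cannot be told apart in such bulk samples.

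**Figure D2:**
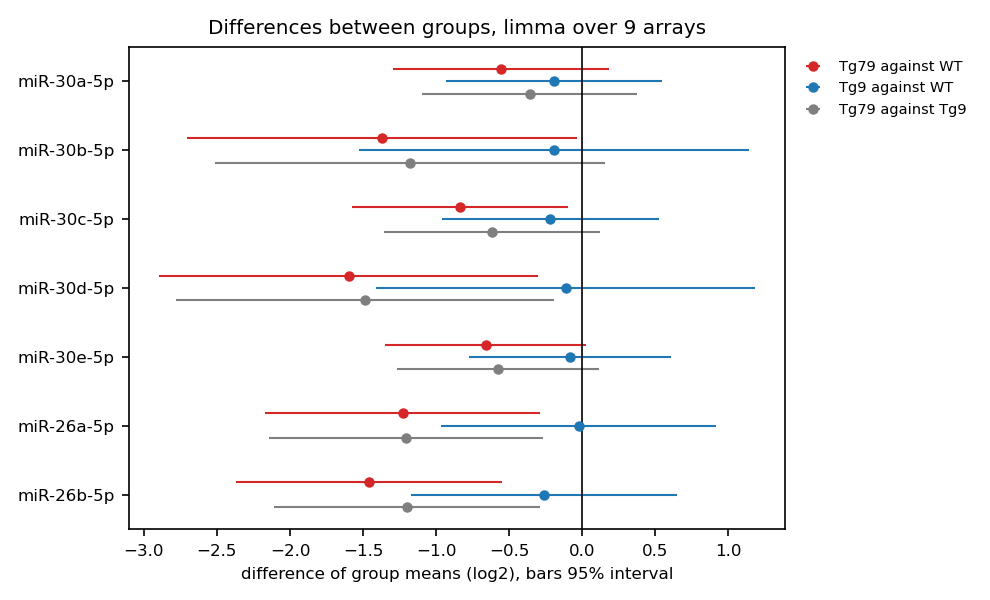
Difference of group means (log2) for each member with its 95% interval from the limma model over 9 arrays, for Tg79 against WT, Tg9 against WT and Tg79 against Tg9. For Tg79 against WT every point lies below 0, with intervals that reach past 0 for miR-30a-5p and miR-30e-5p, and for Tg9 against WT every interval spans 0.

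The calls in Tg79 turned on single arrays and on the scaling. Of 24 alternatives, 19 called 0 of the 7 members. Among those 19 were cyclic loess and the fits without any single wild-type array, without Tg79-1 or without Tg79-2. The settings that did call members follow. Without Tg79-3, limma called 3 members lower, miR-30b-5p (-2.08, adjusted p = 0.0301), miR-30d-5p (-2.23, adjusted p = 0.0301) and miR-26b-5p (-1.81, adjusted p = 0.0359), where 2.4% of all tested miRNAs were called lower. Without the array labelled Tg9-2, miR-26a-5p was called (adjusted p = 0.045) at the same difference of -1.23, where 0.599% were. With the authors' deposited values 7 of 7 were called, from -1.49 to -2.83, where 21.4% of 398 miRNAs were called lower and the median of all was -0.88. With scaling to the 75th percentile of probes above background on all arrays, 3 members were called lower, miR-26a-5p, miR-26b-5p and miR-30d-5p, beside 3.79% of all. With array weights they were miR-26b-5p, miR-30b-5p and miR-30d-5p, beside 6.99%. All calls split into 18 higher and 5 lower among the 501 miRNAs tested here, and into 14 higher and 85 lower among the 398 tested in the authors' values. The 75th-percentile scaling gave 166 higher and 19 lower.

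A family level is the mean log2 intensity of its members on an array. Wild type had a miR-26 level of 11.01 ± 0.27, Tg9 one of 10.86 ± 0.71 and Tg79 one of 9.66 ± 0.52 (SD, n = 3), and the miR-30 level was 9.75 ± 0.24, 9.59 ± 0.43 and 8.74 ± 0.77 in the same order. In both families the group means ran from wild type through Tg9 to Tg79, and the wild-type and Tg9 means, neighbours in that order, differed by less than the spread of the Tg9 arrays. After subtracting the median difference of all miRNAs, the miR-26 level in Tg79 differed by -1.31 under quantile normalization, by -1.24 in the authors' values and by -1.71 under scaling to the 75th percentile. For the miR-30 level these were -0.97, -1.11 and -1.41 in the same order. Tg79 shares its slide with WT2, and against that array alone the miR-26 level was lower by 0.99 to 1.92 and the miR-30 level by 0.42 to 1.86 across the Tg79 arrays, given as sizes of the log2 difference. With slide as a factor in the limma model the member differences in Tg79 ran from -1.80 to -0.97. In that fit 0 of 7 were called (smallest limma adjusted p 0.53). By the slide layout it again sets the Tg79 arrays against WT2 alone, so it is no separate check. WT2 lay above the wild-type mean for all 7 members, by 0.20 to 0.41. Against WT1, the array on their slide, the Tg9 arrays differed by a mean of -0.18 in the miR-26 level and -0.032 in the miR-30 level.

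**Figure D3:**
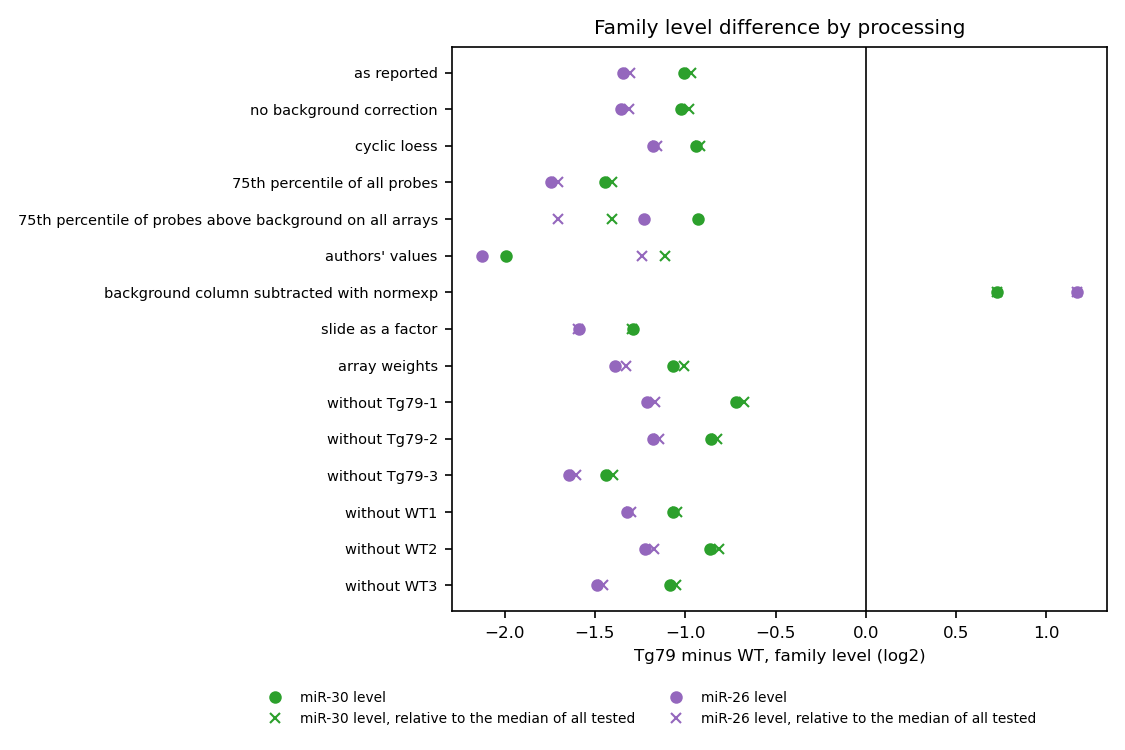
Tg79 minus WT difference of the miR-30 and miR-26 family levels (log2) under each processing choice and without each Tg79 or WT array; circles give the difference and crosses the difference minus that median over all tested miRNAs. Values lie below 0 in each setting drawn except after subtraction of the scanner's background column.

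Tg9 against wild type gave no call, with differences from -0.26 ± 0.39 for miR-26b-5p to -0.023 ± 0.40 for miR-26a-5p and limma adjusted p = 0.99 for all 7 members. Over all 501 miRNAs 0% were called. At an unadjusted p under 0.05 stood 3 of them, none a member, and 0.2% of all were lower by that measure. For no member did all Tg9 arrays lie below all wild-type arrays, where 2% of all did. Without the array labelled Tg9-2 that count was 4, where 8.58% of all did. It stayed at 0 without Tg9-1 and without the array labelled Tg9-3. The intervals were wide, from -0.96 to 0.92 for miR-26a-5p and from -1.41 to 1.18 for miR-30d-5p, so these arrays do not show that the line is like wild type. The Tg9 arrays lay apart. For the array labelled Tg9-2, 5 of 7 members lay above the highest wild-type array, while for that labelled Tg9-3, 6 lay below the lowest. How many of all 501 miRNAs left the wild-type range on a single Tg9 array was not counted. Such member counts therefore do not set the members apart from other miRNAs. On Tg9-1, the Tg9 array with a high transgene product, 5 of 7 members lay below the lowest wild-type array, at 0.14 to 0.55 under the wild-type means. With the arrays labelled Tg9-2 and Tg9-3 left out, these are the Tg9 differences. Tg9-1 is then the only array of its group and is assumed to vary like the wild-type and Tg79 arrays, which alone give the spread. Under that assumption 0 of 7 members were called in Tg9 against wild type, beside 0.599% of all miRNAs. Tg79 against Tg9 ran from -1.46 to -0.27 with 0 of 7 called, beside 0.2%, and transgenic against wild type from -1.0 to -0.42 with 0 of 7 called, beside 1.6%.

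High miR-17-5p and low miR-30 and miR-26 did not go together on every array. After quantile normalization, which gives equal ranks equal values, Tg9-1 and Tg79-3 both read 13.25 for miR-17-5p. Before normalization they read 5546 and 11849, so an equal transgene product is not shown. The members' median differences from the wild-type mean were there -0.31 and -0.22. On Tg79-1 and Tg79-2, at 13.12 and 13.54 for miR-17-5p (5834 and 12150 before normalization), those medians were -1.50 and -1.46. On Tg79-3 the miR-26 members differed from their wild-type means by -0.72 and -0.77, and the miR-30 members by -0.33 to 0.035.

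**Figure D4:**
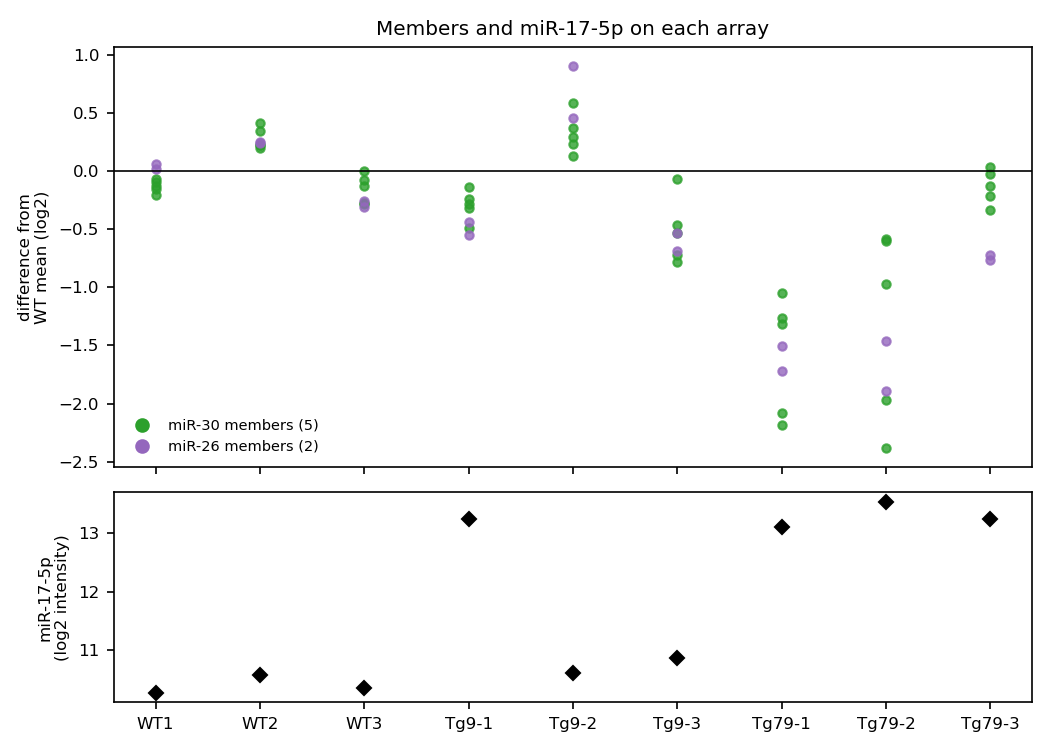
Upper panel, difference of each member from its wild-type mean (log2) on each array, with miR-30 members in green and miR-26 members in purple; lower panel, log2 intensity of miR-17-5p on the same arrays. After quantile normalization miR-17-5p is between 13.12 and 13.54 on Tg9-1 and the 3 Tg79 arrays, where intensities before it ran from 5546 to 12150. Only on Tg79-1 and Tg79-2 do all 7 members lie below their wild-type mean by 0.58 or more.

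Tg79 against Tg9 tested whether the lines differed. All 7 members were lower in Tg79, by 0.36 to 1.49, and 0 of 7 were called, with 0% of all tested miRNAs called. At an unadjusted p under 0.05, 3 members were lower, miR-26a-5p, miR-26b-5p and miR-30d-5p, where 6.39% of all were. The limma differences were -1.20 ± 0.39 for miR-26b-5p (adjusted p = 0.241), -1.21 ± 0.40 for miR-26a-5p (adjusted p = 0.254) and -1.49 ± 0.56 for miR-30d-5p (adjusted p = 0.267). Both miR-26 members had all Tg79 arrays below all Tg9 arrays, where 10.4% of tested miRNAs did. With the authors' values 4 members were called lower, miR-30b-5p, miR-30d-5p, miR-26a-5p and miR-26b-5p, where 6.03% of all were. The count of 2 was 0 under both 75th-percentile scalings, 1 under cyclic loess and 7 in the authors' values. The share over all miRNAs was not counted under these, and in the authors' values the median of all was -0.62. Without Tg79-3, through which alone members overlapped Tg9, the count was also 7, where 20.8% of all did so. Without Tg79-1 or without Tg79-2 it stayed at 2. The lines lie on different slides, joined only through WT1 and WT2, and with slide as a factor the member differences ran from -1.89 to -0.90, with 0 of 7 called (smallest limma adjusted p 0.888). This comparison and that with wild type share the Tg79 arrays.

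Transgenic against wild type, the mean of both lines, called 0 of 7 members and 0% of all tested miRNAs by limma, where 67 of 501 had an unadjusted p under 0.05. The differences ran from -0.37 ± 0.26 for miR-30e-5p to -0.86 ± 0.34 for miR-26b-5p (limma adjusted p = 0.347), and miR-26b-5p was the only member lower at an unadjusted p under 0.05, where 5.59% of all were. For 0 of 7 members did all 6 transgenic arrays lie below all wild-type arrays, where 1.6% of tested miRNAs did. Without the array labelled Tg9-2 the count was 3, where 5.19% did. It stayed at 0 without Tg9-1 and without the array labelled Tg9-3.

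The members varied together across the 9 arrays. Pearson's r between pairs lay between 0.81 and 0.98 within miR-30 (10 pairs), was 0.98 for the miR-26 pair and lay between 0.82 and 0.955 across families (10 pairs). These values describe 9 arrays that share groups and slides, and near-identical sequences share signal to an unknown degree. The levels of both families correlated at r = 0.94 (Spearman's rho 0.88), with Tg79-1 and Tg79-2 lowest and the array labelled Tg9-2 highest in each.

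The 3p arms, the opposite strands of the hairpins, which are usually degraded, were mostly dim. Of 9 on the array, miR-30e-3p lay above background on all 9 arrays and miR-30a-3p on 8, while miR-30d-3p, miR-26a-1-3p and miR-26a-2-3p did so on none. miR-30e-3p read 7.09, 7.37 and 6.91 on the wild-type arrays, 7.03, 7.58 and 7.0 on those of Tg9 and 6.5, 6.85 and 7.32 on those of Tg79, the order of arrays seen for its 5p arm within Tg79, and its Tg79 difference was -0.23 ± 0.25 (adjusted p = 0.592). miR-30e-5p and miR-30e-3p correlated at r = 0.89 over the 9 arrays, and miR-30a-5p and miR-30a-3p at r = 0.88. miR-30a-3p had a Tg79 difference of -0.14 ± 0.10 (adjusted p = 0.42). miR-30c-1-3p and miR-26b-3p lay above background on 3 arrays each, none from Tg79, and miR-30b-3p and miR-30c-2-3p on 2 and 1 arrays, so no fold is given for these 4. Of the 4 arms tested, limma called 0 in Tg79 against wild type, beside 4.59% of all tested miRNAs. At an unadjusted p under 0.05 stood 0 of the 4, where 24.6% of all did. So few arms cannot be set apart from these shares.
miR-30e-3p: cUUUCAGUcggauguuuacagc
miR-30a-3p: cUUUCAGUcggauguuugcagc
These arms carry their own seed and differ by G18A from miR-30a-3p to miR-30e-3p, so the same limit on separating near-identical members holds for them.

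Other miRNAs reported as repressed by Myc were read from a list of 20, among them let-7, miR-15/16, miR-29 and miR-150 members, all of them tested. In Tg79 none passed in either direction, beside 4.59% of all tested miRNAs called, 6 of 20 had an unadjusted p under 0.05 where 24.6% of all did, 16 of 20 had a lower mean where 57.7% of all did, and their median difference was -0.57 against -0.037 over all tested miRNAs. miR-29a-3p had a difference of -1.62 ± 0.54 (limma adjusted p = 0.127), miR-29b-3p one of -1.29 ± 0.45 (adjusted p = 0.133) and miR-150-5p, abundant in mature B and T cells, one of -2.0 ± 0.78 (adjusted p = 0.175). miR-34a-5p, also a p53 target, lay above background on 0 wild-type arrays and on 2 of 3 Tg79 arrays. Its log2 difference in Tg79 was 0.62 ± 0.25 (limma adjusted p = 0.177), so it was not called. No lower bound on the fold is given, since Tg79-1 also lay below background. In Tg9 none passed, where 0% of all did, and 0 had an unadjusted p under 0.05, where 0.599% of all did. The list's median in Tg9 was -0.093, against -0.014 over all. In Tg79, 6 of the list had all Tg79 arrays below all wild-type arrays, where 16.4% of all tested miRNAs did. For 1 of the list all Tg79 arrays lay above, a measure not counted over all miRNAs.

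The miRNAs whose pattern over the 9 arrays was most like the miR-30 level, among 274 above background on all arrays, were miR-140-5p (r = 0.98, rho 0.83), miR-27b-3p (r = 0.96, rho 0.95) and miR-3971 (r = 0.93, rho 0.84). For the miR-26 level they were miR-342-3p (r = 0.95, rho 0.97), miR-27b-3p (r = 0.94, rho 0.83) and miR-140-5p (r = 0.93, rho 0.88). miR-342-3p read 8.98, 9.56 and 9.15 in wild type and 7.61, 6.67 and 8.40 in Tg79. At the opposite end stood miR-712-3p (r = -0.93), miR-155-5p (r = -0.88) and miR-5115 (r = -0.88) for miR-30, and miR-1983 (r = -0.91), miR-712-3p (r = -0.89) and miR-320-3p (r = -0.89) for miR-26. miR-155-5p, which rises when lymphocytes are activated, read 11 and 9.74 on Tg79-1 and Tg79-2, where the members were lowest, and 8.20 on Tg79-3, within 7.93 to 8.32 in wild type. Its rho with the miR-30 level was -0.45.

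Markers of the labelled cells and of others were read beside these values. miR-150-5p read 10.26 and 9.20 on Tg79-1 and Tg79-2 and 12.41 on Tg79-3, against 12.27 to 13.11 in wild type, so it was low where the members were low across the Tg79 arrays. The 5 leukocyte markers lay above background on all 9 arrays, with 0 called in Tg79 and 4 of 5 at an unadjusted p under 0.05 by limma, where 24.6% of all were. They did not share a direction. Beside miR-150-5p, the leukocyte miR-142-3p differed by -1.07 ± 0.31 (adjusted p = 0.0911), while miR-181a-5p differed by 0.98 ± 0.37 (adjusted p = 0.163) and miR-155-5p by 1.52 ± 0.61 (adjusted p = 0.179). Of 10 markers of myeloid, erythroid, endothelial and stromal cells 9 are on the array and 7 were tested. Limma called 0 of the 7 in Tg79, beside 4.59% of all tested miRNAs. At an unadjusted p under 0.05 stood 1, where 24.6% of all did. A lower mean in Tg79 was seen for 1 of the 7, miR-223-3p, where 57.7% of all had one. The mean level over the 9 markers on the array, detected or not, ranged over 6.33 to 6.43 (wild type), 6.42 to 6.67 (Tg9) and 6.24 to 6.66 (Tg79). Several were detected: the myeloid miR-223-3p, the erythroid miR-451a and miR-214-3p, a miRNA of stromal cells, lay above background on all 9 arrays, the endothelial miR-126-3p on 8 and miR-143-3p, of smooth muscle and stroma, on 7. The erythroid miR-144-3p lay above it on 0 arrays and miR-126-5p on 1, and neither was tested. miR-126-3p differed by 0.43 ± 0.16 in Tg79 (adjusted p = 0.163), miR-214-3p by 0.31 ± 0.16 (adjusted p = 0.265) and miR-143-3p by 0.24 ± 0.15 (adjusted p = 0.379). miR-223-3p read 7.39, 7.64 and 7.16 in wild type and 6.69, 6.35 and 6.21 in Tg79, without overlap, and 9.10 on Tg9-1 (Tg79 difference -0.98 ± 0.56, adjusted p = 0.32). The part of cell composition, of activation and of the lower share of probes above background in the Tg79 differences was not tested.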

How the data were processed

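Per the labels, total RNA of magnetic-bead isolated splenic B cells was Cy5-labelled. The deposited scanner files give, per the file headers, the median spot intensity at 1 wavelength, not normalized, for 1265 miRNA probes with 1 spot each. The authors' deposited log2 values, made by steps not given in the sources used here, were an alternative; their identifiers were moved by 5 rows, which raised Spearman's rho with the scanner values from at most 0.171 to 1.

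In R 4.3.3 with limma 3.58.1, intensities were normexp-corrected from the foreground alone (offset 50), taken to log2 and quantile normalized. A probe was tested when above the 95th percentile of 24 negative control spots on at least 3 of 9 arrays (501 probes, 282 on all 9). One limma model held the means of 3 groups; tests were two-sided, adjusted by Benjamini-Hochberg over all 501, with calls under 0.05. The model was tested on simulated data. Nothing states that arrays of a group come from separate mice, so p-values measure the spread between arrays, and the number of arrays limits the precision. The members and lists were chosen with earlier results of these data known. Named miRNAs were the members, their 3p arms, miR-17-5p, up to 4 of each list by p, and the 3 most and least alike per family; miR-384-5p was added for its seed, and miR-451a, miR-144-3p and miR-126-5p, chosen after their values were seen, for their detection. The mRNA arrays, whose probes carry no gene names in the tables used, were not analysed here. Alternatives were other background corrections, scalings and filters, slide and replicate terms, array weights and leaving out arrays. The replicate numbers did not pair the arrays.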

Additional observations from a re-analysis of the deposited data

How the results depend on the processing

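Of the members' differences under 24 alternatives (23 for transgenic against wild type, where a fit of only the groups compared is the same fit), 17 of 168 values for Tg79 against wild type became calls and 6 turned sign, while 0 of 168 for Tg9 and 0 of 161 for transgenic against wild type became calls. The number of members called in Tg79 was 3 with scaling to the 75th percentile of probes above background on all arrays (median of all tested miRNAs 0.48; 166 miRNAs higher and 19 lower), 7 with the authors' values, 3 with array weights and 0 to 3 with 1 array left out; in Tg79 against Tg9 it was 4 with the authors' values. The count of 4 members with all Tg79 arrays below wild type became 7 with the authors' values, with the 75th percentile of all probes and without Tg79-3, and 1 with the background column. Of these settings the share over all miRNAs was counted only without Tg79-3, at 27.1%. Over all miRNAs 23 were called in Tg79 and between 0 and 185 under the alternatives; for Tg79 against Tg9, Tg9 against wild type and transgenic against wild type, with 0 called, the highest counts were 27, 3 and 35. With the authors' values the miR-30 level difference was -1.99 from wild type and -1.90 from Tg9, and the miR-26 level difference -2.12 and -2.11. The deposited background column correlated with the spot intensity (r on the log2 scale 0.976 to 0.994 across spots). With it the miR-30 level difference was 0.72 in Tg79, 0.38 in Tg9, 0.34 for Tg79 against Tg9 and 0.55 for transgenic against wild type, and that of miR-26 was 1.17, -0.69, 1.86 and 0.24. The members then read, for Tg79 against wild type, 0.32 (miR-30a-5p), 1.18 (miR-30c-5p), 2.06 (miR-30d-5p), 0.94 (miR-30e-5p), 0.83 (miR-26a-5p) and 1.51 (miR-26b-5p), with miR-30b-5p at -0.88; for Tg9 against wild type, 0.23 (miR-30a-5p), 1.05 (miR-30c-5p), 1.31 (miR-30d-5p) and 1.24 (miR-30e-5p); for Tg79 against Tg9, 0.093 (miR-30a-5p), 1.03 (miR-30b-5p), 0.12 (miR-30c-5p), 0.75 (miR-30d-5p), 1.09 (miR-26a-5p) and 2.62 (miR-26b-5p); and for transgenic against wild type, 0.27 (miR-30a-5p), 1.12 (miR-30c-5p), 1.69 (miR-30d-5p), 1.09 (miR-30e-5p), 0.28 (miR-26a-5p) and 0.20 (miR-26b-5p). Tg9 differences near 0 also turned: miR-26a-5p to 0.032 under cyclic loess, to 0.053 in the authors' values and to 0.030 under array weights, miR-30e-5p to 0.012 with array weights and miR-30d-5p to 0.089 with slide as a factor. With 1 array, or those labelled Tg9-2 and Tg9-3 together, left out the Tg9 differences ranged from -0.49 to 0.23 for miR-26a-5p, -0.41 to 0.010 for miR-30a-5p, -0.48 to 0.067 for miR-30b-5p, -0.46 to 0.22 for miR-30d-5p and -0.31 to 0.089 for miR-30e-5p. The cause of these changes was not tested. Slide as a random block had an estimated correlation of -0.14. The replicate block changed no member's call: same-numbered arrays correlated at -0.43 to 0.38 in their deviations from group means, and 1 of 9 arrays correlated best with its own number. With the block the smallest adjusted p among members in Tg79 was 0.162.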
